A study of Homo sapiens with 13 samples.

Results

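The clustered protocadherin genes are cell-surface adhesion genes that lie side by side on chromosome 5. They were taken as the protein-coding genes of GENCODE release 44 on that chromosome whose symbols start with PCDHA, PCDHB or PCDHG. The rule gave 53 genes out of 20007 protein-coding genes, of which 15 were alpha, 16 beta and 22 gamma genes. No measured value entered the rule. All 53 are on the plus strand of hg38, and the transcription start sites (TSSs) run from PCDHA1 at position 140786136 to PCDHGC5 at 141489081.

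Accessible chromatin was mapped by ATAC-seq, in which a transposase tags open DNA, in H82 and H146, long-established cell lines from human small cell lung cancer (SCLC). H82 is of the NEUROD1 subtype and H146 is not, and both were grown in RPMI with serum. H82 had 3 untreated libraries and 3 libraries from cells given FHD-286, which blocks SMARCA4 and SMARCA2, the ATPases of the SWI/SNF remodeling complexes, for 14 days at 100 nM. H146 had 4 untreated libraries and 3 libraries treated in the same way. Each line is a single culture-adapted tumor genome, so a difference between H82 and H146 is a difference between these lines and not between subtypes. The data used here are 1 list of accessible regions per line, pooled over treated and untreated libraries, with a chromosome, a start and an end for each region. A region therefore has no height and no library of origin, depth per library was unknown, and the effect of FHD-286 could not be measured. There was no replicate value, so every difference below is a description of the lists and was given no test. Line identity cannot be told apart from how many libraries were pooled, how deeply they were sequenced and how many DNA copies the cells carry.

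Clustered protocadherins give neurons surface identities. In the alpha and gamma groups each gene has a long variable first exon with its own promoter, spliced to constant exons that all genes of the group share, whereas beta genes are single-exon genes. In neurons most variable promoters are chosen at random and differ from cell to cell, with the chosen promoters unmethylated and looped to distant enhancers by CTCF and cohesin, while the C-type genes at the ends of the alpha and gamma groups are used more regularly. Most non-C-type promoters carry a short conserved element known as the CGCT box. The canonical transcripts held 4 exons at every alpha and gamma member and 1 exon at every beta member. First exons measured 2470 to 7973 bp.

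The CGCT boxes are shown here because they mark where a member's promoter sits and because members with and without an accessible region can be read side by side. RefSeq promoters on GRCh38.p14, from 250 bases before to 50 after the start, were matched for 47 of the 53 members. PCDHA3, PCDHA13, PCDHB6, PCDHB11, PCDHGA12 and PCDHGC5 were not matched. The words below were read from the members' own promoters and are in capitals within hg38 sequence of the plus strand, 5′ to 3′. The first 4 beta genes had a region in both lines, and the other 4 in neither.
PCDHB2, chr5:141094541-141094573: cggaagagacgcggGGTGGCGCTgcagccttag
PCDHB5, chr5:141135176-141135208: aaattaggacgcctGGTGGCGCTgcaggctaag
PCDHB8, chr5:141177774-141177806: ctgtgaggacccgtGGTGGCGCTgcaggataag
PCDHB14, chr5:141223260-141223292: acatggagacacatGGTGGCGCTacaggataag
PCDHB3, chr5:141100390-141100422: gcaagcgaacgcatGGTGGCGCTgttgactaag
PCDHB4, chr5:141121720-141121752: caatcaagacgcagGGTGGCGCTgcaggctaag
PCDHB13, chr5:141213862-141213894: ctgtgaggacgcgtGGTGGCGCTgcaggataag
PCDHB15, chr5:141245311-141245343: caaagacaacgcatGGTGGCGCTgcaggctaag

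The beta word GGTGGCGCT, read on both strands, was present in 13 of 14 beta promoters and missing only from PCDHB1. It occurred in 0.678% of 15345 protein-coding promoters. Its CGCT letters lay at -79 to 3 bp from the RefSeq start, with a median of -61 bp. The word did not separate the genes by their state, since 4 of 5 beta promoters with a region and 9 of 9 without one had it.

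Alpha and gamma A promoters held other forms of the box. In the alpha set PCDHA4 had a region in both lines, PCDHA2 and PCDHA11 in H82 alone, and PCDHA1 and PCDHA7 in neither. In the gamma A set PCDHGA9 had a region in H82 alone, PCDHGA10 in H146 alone, and PCDHGA2 and PCDHGA7 in neither.
PCDHA4, chr5:140806978-140807008: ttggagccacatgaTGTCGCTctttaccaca
PCDHA2, chr5:140794780-140794810: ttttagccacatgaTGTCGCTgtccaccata
PCDHA11, chr5:140868882-140868912: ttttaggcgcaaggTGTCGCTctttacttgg
PCDHA1, chr5:140786085-140786115: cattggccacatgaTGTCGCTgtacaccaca
PCDHA7, chr5:140834171-140834201: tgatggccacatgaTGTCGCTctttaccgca
PCDHGA9, chr5:141402716-141402746: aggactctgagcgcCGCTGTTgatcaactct
PCDHGA10, chr5:141412933-141412963: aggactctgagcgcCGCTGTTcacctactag
PCDHGA2, chr5:141338705-141338735: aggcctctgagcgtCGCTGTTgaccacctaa
PCDHGA7, chr5:141382651-141382681: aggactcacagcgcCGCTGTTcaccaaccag

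TGTCGCT was present in 10 of the 11 matched alpha promoters outside the C-type genes, all but PCDHA9, and in 2.14% of all promoters. CGCTGTT was present in 10 of 11 gamma A promoters, all but PCDHGA11, and in 2.72% of all promoters. Some promoters of other groups held them too. TGTCGCT was in 3 gamma A promoters and 1 beta promoter, and CGCTGTT in 3 gamma B promoters and 1 beta promoter. None of the 3 words was in the 4 matched C-type promoters. The alpha word was in 3 of 3 promoters with a region in either line and in 7 of 8 without, and the gamma A word likewise in 3 of 3 and 7 of 8. These states are for the window around the TSS and not for the box itself. Of the gamma A genes with a region, only PCDHGA10 had its box inside it. Each word was thus found at genes with and without a region near the TSS.

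A member counted as accessible in a line when at least 1 bp of a region lay within 1 kb of its TSS, taken as the 5′ end of the gene. A region was present at 17 of 53 members in H82 (32.1%), against 80.5% of all protein-coding genes. In H146 it was present at 14 members (26.4%), against 77.2% of all genes. Both lines had a region at 13 members (24.5%, all genes 75.4%), and neither line at 35 members (66.0%, all genes 17.7%). Only H82 had one at 4 members (7.55%, all genes 5.09%), and only H146 at 1 member (1.89%, all genes 1.86%). These last counts turned to 1 in H82 alone and 2 in H146 alone at the TSS base itself, and likewise with at least 500 bp of the window overlapped. The shares of members found in a single line were thus near those of all genes, and the wide gap was in the share with no region in either line. Of the 18 members with a region in at least 1 line, 72.2% had it in both, against 91.6% over all genes.

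Other gene groups read in the same way showed where the members fell. The other protein-coding genes of chromosome 5, 828 in number, had a region in both lines in 73.9% and in neither in 18.4%. The 12 non-clustered protocadherins, single genes spread over the genome that encode related adhesion proteins, had a region in both lines at 9. PCDH8 and PCDH19 had one in H82 alone, with all 2001 bp of the window covered, and PCDH15 in neither. Among the 39 HOX genes, transcription factors of body patterning that also lie in clusters, 23 had a region in both lines, 11 in H82 alone, 1 in H146 alone and 4 in neither. The 178 olfactory receptor genes of chromosome 11, a tandem family from which each sensory neuron uses 1 gene, had a region in neither line in 92.7%. The members' share without a region thus lay between that of the HOX genes (10.3%) and that of the olfactory receptor genes. Of genes with a region in at least 1 line, 65.7% of HOX and 69.2% of olfactory receptor genes had it in both. This was 81.8% for non-clustered protocadherins and 90.5% for the other genes of chromosome 5. The members' 72.2% was thus not the lowest of these groups.

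**Figure D1:**
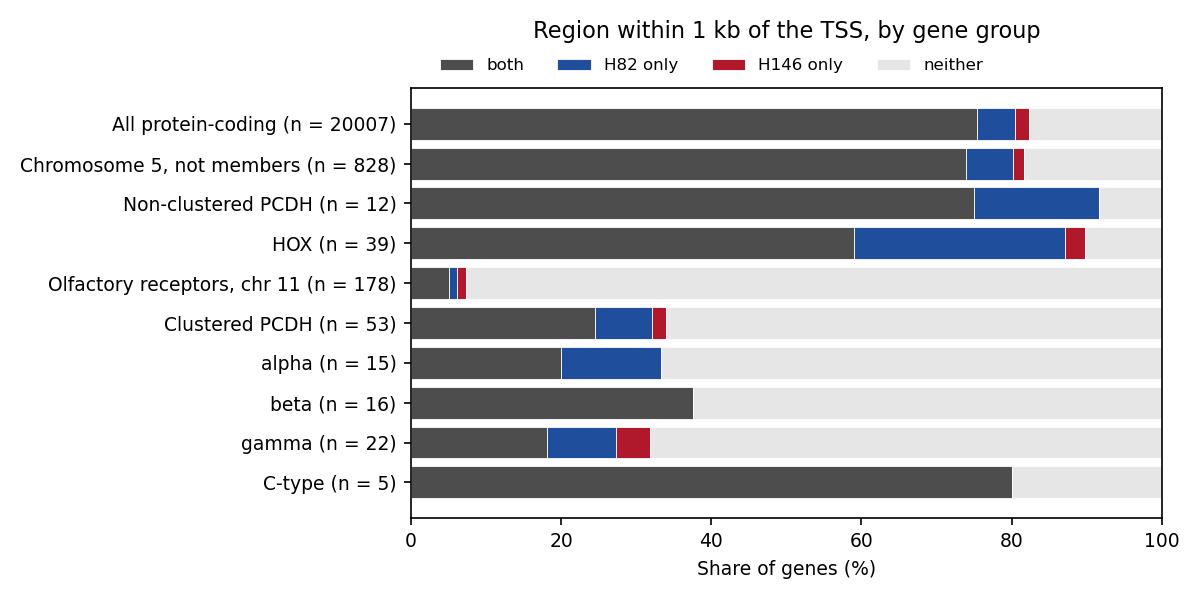
Share of genes (x axis, percent) by state of the 1-kb TSS window (region in both lines, in a single line or in neither), for each gene group with its number of genes. The clustered protocadherins have no region in either line in 66.0%, against 17.7% of all protein-coding genes, while 4 of the 5 C-type genes have one in both lines.

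By covered bases, the C-type genes other than PCDHGC5 ranked highest among the members. PCDHAC2, the last alpha gene, had regions of 1907 bp in H82 and 1655 bp in H146 over its TSS, covering 1569 and 1475 bp of the window. PCDHAC1 had 1482 bp covered in H82 and 1276 bp in H146. At PCDHGC3, the first C-type gene of the gamma group, the values were 1261 and 1275 bp, and at PCDHGC4 they were 991 and 1177 bp. These genes held the 4 highest values of all members in each line. H82 covered more at both alpha C-type genes and H146 at both gamma ones. PCDHGC5 was the exception, with no region in its window in either line and the nearest one 3693 bp away in H82 and 3615 bp in H146. The matched C-type promoters had a median GC content of 61.8% and a median ratio of observed to expected CpG of 0.765, close to the 63.0% and 0.767 of all promoters. Over the 47 matched members the medians were 39.7% and 0.593. By state, the median GC content was 46.3% over 12 members with a region in both lines, which include the 4 C-type genes, 37.3% over 5 members with one in a single line and 39.2% over 30 members with none.

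Outside the C-type genes, 9 of 48 members (18.8%) had a region in both lines and 34 (70.8%) in neither. Their regions were also narrower. The median covered length where a region was present was 406 bp in H82 and 551.5 bp in H146, against 1371.5 and 1275.5 bp at C-type genes. Over all genes with a region it was 1462 bp in H82 and 1448 bp in H146. Short covered lengths were not particular to the members. The olfactory receptor genes of chromosome 11 with a region had 426 bp in H82 and 649 bp in H146. HOX genes had 1405 and 647.5 bp, and non-clustered protocadherins 1861 and 1198 bp.

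**Figure D2:**
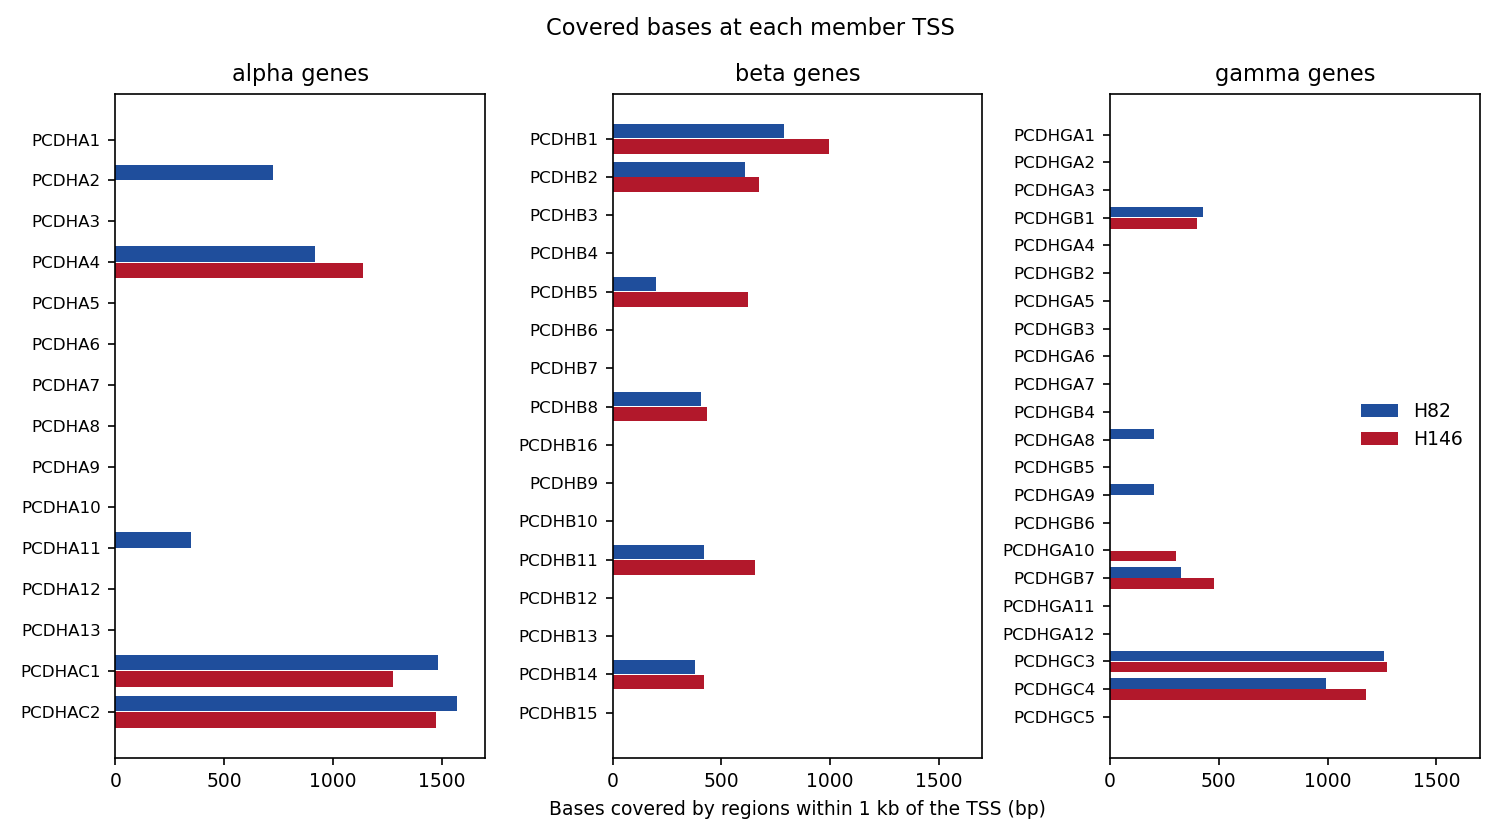
Bases covered by regions within 1 kb of the TSS (x axis, bp) for each of the 53 members in genome order, H82 in blue and H146 in red, with alpha, beta and gamma genes in separate panels and no bar where no region was present. The longest bars are those of PCDHAC1, PCDHAC2, PCDHGC3 and PCDHGC4, and 35 members have no bar in either line.

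Among the alpha genes, 3 of 15 had a region in both lines, 2 in H82 alone and 10 in neither. PCDHA4 (ENSG00000204967.13, TSS at 140807037) was the only non-C-type alpha gene with a region in both. Its H82 region ran from -150 to 769 bp of the TSS and its H146 region from -284 to 852 bp, which gave 920 and 1137 bp. PCDHA2 (TSS at 140794852) had 723 bp covered in H82, from -86 to 636 bp, and 0 bp in H146, the largest difference of any member. The nearest H146 region to PCDHA2 lay 11901 bp from its TSS. PCDHA11 (TSS at 140868183) had 349 bp covered in H82 and 0 bp in H146. The H82 region was 532 bp wide and began 652 bp downstream of the 5′ end of the gene. The canonical transcript and the RefSeq start lie 774 bp downstream of that end, so this region covered the start used there and the CGCT box printed above.

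The run from PCDHA5 to PCDHA10 had no region in either line. The nearest region to these 6 genes lay 12952 to 27648 bp away in H82 and 13715 to 47994 bp away in H146. PCDHA1, the first gene of the cluster, also had none, with the nearest region 8630 bp away in H82 and 9708 bp in H146. PCDHA3, between the accessible PCDHA2 and PCDHA4, had its nearest region 5540 bp away in H82 and 5725 bp in H146.

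The beta genes did not differ between the lines in state in the 1-kb window: 6 of 16 had a region in both and 10 in neither. At the TSS base itself PCDHB5 turned to H146 alone. With regions of at least 500 bp PCDHB5 and PCDHB11 did so, and PCDHB8 and PCDHB14 turned to neither. PCDHB1 (TSS at 141051374), the first beta gene, had 788 bp covered in H82 and 996 bp in H146. PCDHB2 had 607 and 673 bp, PCDHB8 406 and 435 bp, and PCDHB14 380 and 419 bp. PCDHB11 had 420 bp in H82 and 656 bp in H146. PCDHB5 (TSS at 141135206) differed most within the group, with 200 bp in H82, from 12 to 211 bp of the TSS, and 623 bp in H146, from -174 to 448 bp. H146 covered more bases at 6 of these 6 genes. The PCDHB14 region also lay within 1 kb of the TSS of a gene with no symbol in the annotation, ENSG00000279983, so it cannot be assigned to PCDHB14 alone. At the 10 beta genes without a TSS region, the nearest H82 region lay 1728 to 21807 bp away and the nearest H146 region 4316 to 21807 bp away. The longest of these distances, in both lines, was that of PCDHB15, the last beta gene.

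Of the 22 gamma genes, 4 had a region in both lines, 2 in H82 alone, 1 in H146 alone and 15 in neither. PCDHGB1 (TSS at 141350099) had 427 bp covered in H82 and 398 bp in H146. PCDHGB7 (TSS at 141417645) had 328 and 480 bp. PCDHGA10 (TSS at 141412987) was the only member with a region in H146 alone, 304 bp from -144 to 159 bp of the TSS, over its CGCT box. PCDHGA9 (TSS at 141402778) had an H82 region of 200 bp from 787 to 986 bp downstream of the TSS, so the promoter itself was not covered. PCDHGA8 was counted as H82 only through a region of 200 bp at -663 to -464 bp, which lay inside the first exon of PCDHGB4. The canonical transcript of PCDHGA8 starts 2476 bp downstream of the 5′ end of the gene, and around that start neither line had a region. At the 15 gamma genes without a TSS region, the nearest region lay 1775 to 12697 bp away in H82 and 3114 to 30104 bp away in H146. PCDHGA1, the first gamma gene, had its nearest region 3852 bp away in H82 and 4027 bp in H146.

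At the 13 members with a region in both lines, H146 covered more bases at 10 and H82 at 3, namely PCDHAC1, PCDHAC2 and PCDHGB1. The median covered length was 607 bp for H82 against 673 bp for H146, and the median difference (H82 minus H146) was -66 bp. Over the 15083 genes with a region in both lines, H146 covered more at 6655 (44.1%) and H82 at 5449. The rest were equal, and the median difference was 0 bp. Over all such genes, too, H146 thus covered more at more genes than H82 did. Summed over all 53 members, the covered bases were 11251 in H82 and 11324 in H146. By group the sums in H82 and H146 were 5043 and 3888 bp at alpha, 2801 and 3802 bp at beta, and 3407 and 3634 bp at gamma genes. The near-equal totals thus held alpha and beta gaps in opposite directions. The higher number of members in H82 did not hold at the TSS base itself, where a region lay at 13 members in H82 and 14 in H146, or with at least 500 bp of the window overlapped, at 8 and 9. The region reached the TSS base itself in both lines at 12 of these 13 members, all but PCDHB5, where it did so in H146 alone.

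The boxes that matched the 3 words were then set against the regions. This left out the gamma B genes, for which no word was read, and the members with no matched promoter. Of the 33 boxes scored, 6 lay inside an H82 region and 6 inside an H146 region. Both lines covered those of PCDHA4, PCDHB2, PCDHB8 and PCDHB14. H82 alone covered those of PCDHA2 and PCDHA11, and H146 alone those of PCDHB5 and PCDHGA10. Of the boxed members with a TSS region, 6 of 6 had the box inside it in H146, and 6 of 9 in H82. The other 3 in H82 were PCDHB5, PCDHGA8 and PCDHGA9, whose regions were 20, 2891 and 829 bp from the box and were each 200 bp wide, the narrowest width in the list.

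The word AGNNGGCGC, a core of the CTCF motif, was searched on both strands of the RefSeq promoters. It was found at 3 of 47 members (6.38%) and in 13.7% of all promoters. These were PCDHB7 and PCDHB9, with no region in either line, and PCDHGC4, with a region in both. The reversed word CGCGGNNGA, which has the same composition, was found at 0 members and in 8.01% of all promoters. Within 500 bp of the TSS the order turned. There the CTCF word was at 8 of 53 members (15.1%, all genes 28.5%) and the reversed word at 12 (22.6%, all genes 18.7%), and each was at 5 of the 18 members with a region. The beta word and the CTCF word share the letters GGCGC. At PCDHB7 and PCDHB9 the CTCF match, AGGTGGCGC, overlapped the beta word GGTGGCGCT and was not a separate stretch of sequence. The matched member promoters also differed in GC content from all promoters, with medians of 39.7% and 63.0%. The part of GC content in the shares of both words was not tested. A match is a description of letters only, and CTCF binding was not measured here.

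Some members have promoters that resemble each other. Over the 47 matched promoters, identity to the closest other member had a median of 56.5% (51.9% to 80.0%). The most similar promoters were those of PCDHGB4 and PCDHGB5 (80.0% identity), PCDHGB6 and PCDHGB7 (73.9%), and PCDHB8 and PCDHB13 (71.3%). In the last 2 pairs one member had a region in both lines and the other in neither. The stretch around the box, with CGCT in capitals, is shown for these pairs because their promoters are among the most similar and their states differ. The stretch of PCDHGB7, which was not among the boxes scored above, lay inside the regions of both lines.
PCDHGB7, both lines, chr5:141417600-141417639: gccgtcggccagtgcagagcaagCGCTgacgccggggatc
PCDHGB6, neither line, chr5:141407941-141407980: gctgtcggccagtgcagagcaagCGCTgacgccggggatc
PCDHB8, both lines, chr5:141177770-141177809: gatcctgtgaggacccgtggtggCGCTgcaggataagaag
PCDHB13, neither line, chr5:141213858-141213897: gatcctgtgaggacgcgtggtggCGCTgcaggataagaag

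Repeated sequence was measured as the share of 50-base words that occur again, on either strand, elsewhere in the cluster. Within 250 bp of the TSS it was above 0 at 9 of 53 members, with 31.0% at PCDHB8, 32.7% at PCDHB13, 25.7% at PCDHGB6 and 23.2% at PCDHGB7. The median over members within 1 kb of the TSS was 0% for those with a region in either line and 0.461% for those in neither. At alpha genes the share within 1 kb ran from 0.461% to 25.4% (PCDHA7) without a region and from 0% to 4.25% (PCDHA2) with one. At beta and gamma genes the median was 0%. The highest value was 38.7%, at PCDHB8 with a region and at PCDHB13 without one. The part of read placement in the states of PCDHB13 and PCDHGB6 was not tested.

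From the TSS of PCDHA1 to the end of the gamma genes, 727 kb (chromosome 5, 140786136 to 141512977), H82 had 42 regions and H146 had 27. They covered 30003 bp (4.13%) in H82 and 23038 bp (3.17%) in H146. Overlap with the other line was found for 24 H146 regions (88.9%) and 23 H82 regions (54.8%), so 19 regions were H82 only and 3 were H146 only. Over chromosome 5 the shared portions were 65.8% in H146 and 57.3% in H82. They were 88.9% and 47.0% in the 1 Mb before the cluster, and 63.2% and 57.4% in the 1 Mb after it. The ratio of H82 to H146 regions was 1.56 in the cluster, 1.16 over chromosome 5, 1.86 in the 1 Mb before the cluster and 1.08 in the 1 Mb after it. H82 thus had more regions than H146 in both flanks and on the whole chromosome as well.

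**Figure D3:**
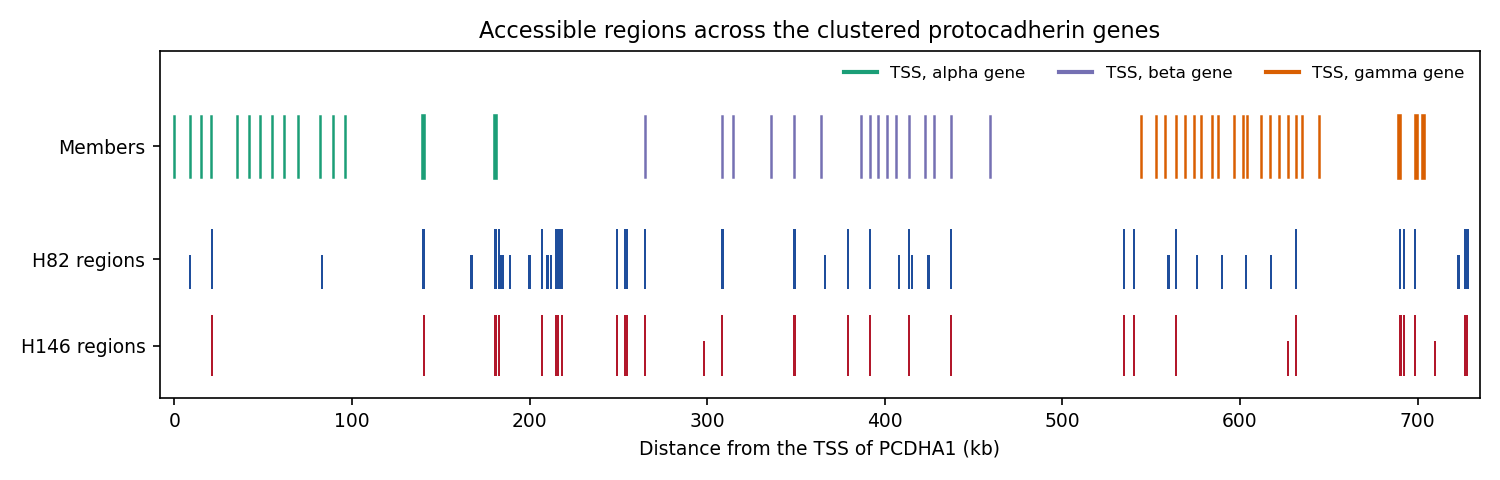
Position of the accessible regions of H82 (blue) and H146 (red) along the cluster, in kb from the TSS of PCDHA1 (x axis), below the TSSs of the alpha, beta and gamma genes, with thick marks for C-type genes. Tall bars are regions that overlap the other line and short bars are regions of 1 line, all drawn at a fixed least width so that narrow ones can be seen. H82 has 19 short bars, 6 of them crowded past the last alpha TSS, and H146 has 3.

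Regions of a single line were narrow. The 19 H82-only regions had a median width of 345 bp (200 to 1365 bp) and the 23 shared H82 regions 651 bp (200 to 4086 bp). The 3 H146-only regions measured 207, 304 and 421 bp, and the 24 shared H146 regions had a median of 810 bp.

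The segment that holds the alpha constant exons had the highest ratio of H82 to H146 covered bases among the segments of the cluster. It spans 43.0 kb from the end of the PCDHAC2 first exon to the end of the alpha genes. Known enhancers of the alpha genes lie in and just past this stretch. H82 had 8 regions there and H146 had 3, which covered 7804 bp (18.1%) and 3854 bp (8.96%), a ratio of 2.02. The ratio of covered bases was 1.94 over the 1 Mb before the cluster, at 10.9% and 5.61%, so a gap of this size was not limited to the segment. Over the 1 Mb after the cluster the ratio was 0.955, and over chromosome 5 it was 1.11. A single H82 region of 4086 bp (141000700 to 141004785) faced 2 H146 regions of 2087 bp (141000632 to 141002718) and 1183 bp (141003805 to 141004987), in the intron before the last constant exon. A smaller shared region measured 361 bp in H82 (140992829 to 140993189) and 584 bp in H146 (140992755 to 140993338). The other 6 H82 regions had no H146 counterpart. They measured 200 to 1365 bp, and the widest, at 140985377 to 140986741, lay past the second constant exon (140982475 to 140982563). None of the 3 alpha constant exons, of 59, 89 and 2721 bp, was itself reached by a region in either line.

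Between the alpha and beta genes the lines had the same set of sites. All 3 regions of H82 were shared with the 3 of H146. The widest measured 1909 bp in H82 (141039547 to 141041455) and 1965 bp in H146 (141039549 to 141041513). The next measured 393 bp in H82 (141035265 to 141035657) and 480 bp in H146 (141035244 to 141035723), and the last was that of PCDHB1. Between the beta and gamma genes both lines had 2 regions. One lay over the TSS of TAF7, a general transcription factor gene that is not a protocadherin, with widths of 1155 bp (H82) and 1100 bp (H146). The other measured 651 bp in H82 and 445 bp in H146 and lay upstream of PCDHGA1.

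In the gamma constant segment each line had 1 region inside the cluster and they did not overlap, at 141508581 to 141509734 in H82 (1154 bp) and 141495958 to 141496378 in H146 (421 bp). A further region covered the end of the last gamma constant exon (141510947 to 141512975) in both lines and ran past the cluster, with 2613 bp in H82 and 2414 bp in H146. Within the beta genes, 10 H82 and 7 H146 regions were present, of which 6 were shared in each line. One of these lay between genes, with 601 bp in H82 (141165314 to 141165914) and 753 bp in H146 (141165256 to 141166008). Within the gamma variable exons there were 10 H82 and 6 H146 regions, with 5 shared in each.

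A separate set of H82 regions lay far inside first exons. Regions over first exons fell into those centred up to 1500 bp past the exon start and those centred further in, a limit chosen after the positions had been seen. In H82 16 regions were of the first kind, of which 13 were shared, and 10 of the second, of which 2 were shared. H146 had 14 of the first kind, 13 of them shared, and 2 of the second, both shared. The shared late regions lay in PCDHAC2, with 469 bp in H82 and 200 bp in H146, and in PCDHGC3, with 813 and 867 bp. How often regions lie this far inside the first exons of other genes was not counted. The late regions therefore cannot be called particular to the members. Over the genome H82 had 206927 regions and H146 had 174093.

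The other 8 late regions were in H82 alone. They lay in PCDHB6, PCDHB10, PCDHB11, PCDHB12, PCDHGA3, PCDHGB2, PCDHGA6 and PCDHGB4. Their centres were 1895 to 2352 bp into the exon and their widths 200 to 427 bp, with a median of 272.5 bp. Of these genes only PCDHB11 also had a region at its own TSS, and the PCDHGB4 region is the one counted above for PCDHGA8. Their median GC content was 69.2%, against 51.4% in the 16 H82 regions near exon starts. This stretch of the exon is rich in GC in most members. From 1800 to 2400 bp past the exon start the median was 68.9% in these 8 genes and 66.6% in the 43 members with no late region in either line.

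Most of these 8 regions overlapped repeated sequence. The median share of repeated 50-base words was 88.5% (5.96% to 100.0%), and 5 of the 8 exceeded 80%, in PCDHB10 (97.1%), PCDHB11 (100.0%), PCDHB12 (85.0%), PCDHGA3 (98.0%) and PCDHGB2 (92.0%). The other values were 41.4% in PCDHB6, 44.7% in PCDHGA6 and 5.96% in PCDHGB4. In the 2 shared late regions the share was 0%. The H82 regions near exon starts had a median of 0% and a highest value of 39.2%, at PCDHB8, and H82 regions outside first exons reached 0.76% at most. In the same stretch of all members, 1800 to 2400 bp past the exon start, 13 of 16 beta genes had more than 50% of words repeated, as did 3 gamma genes and no alpha gene. The part of read placement between copies in the 8 regions was not tested.

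**Figure D4:**
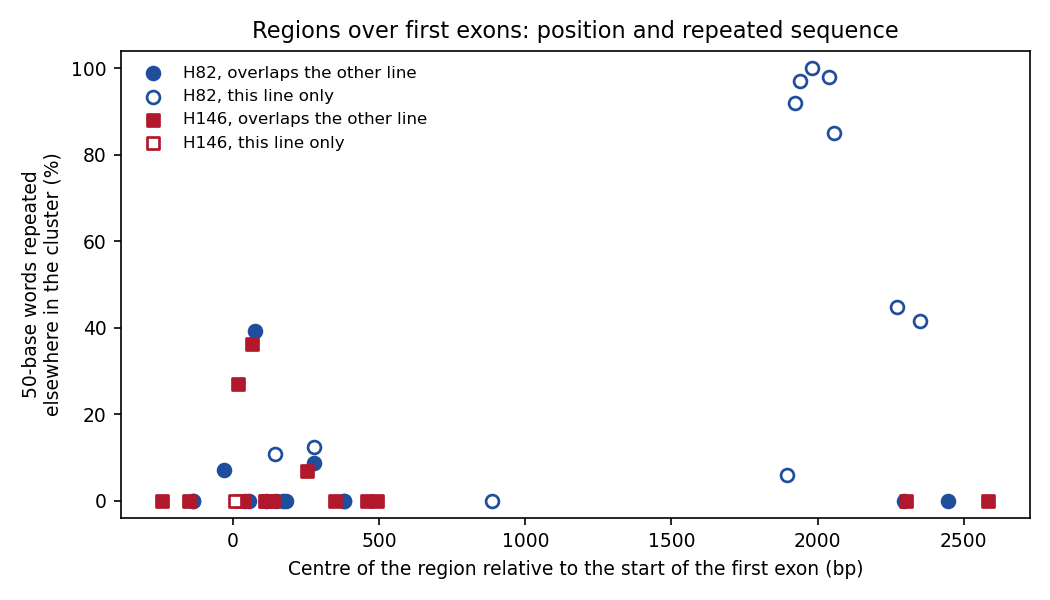
Regions over first exons by the distance of their centre from the exon start (x axis, bp) and the share of their 50-base words repeated elsewhere in the cluster (y axis, percent), with H82 as blue circles, H146 as red squares, filled where the other line overlaps and open where it does not. The open circles at 1895 to 2352 bp are the 8 late H82-only regions, 5 of them above 80%, while the highest value near exon starts is 39.2%.

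The genes whose products act on the cluster were accessible in both lines. The list held CTCF, the cohesin genes RAD21, SMC1A, SMC3, STAG1 and STAG2, and the cohesin loader NIPBL and releaser WAPL. It also held the chromatin regulators SMCHD1, DNMT3B, SETDB1 and WIZ, and REST, which represses neuronal genes. All 13 had a TSS region in both lines, against 75.4% of all genes. Their medians were 1944 and 1925 bp covered, against 1462 bp in H82 and 1448 bp in H146 over all genes with a region. As a check of the lines, SYP, CHGA, SRRM4 and INSM1 had a TSS region in both, and NEUROD1 had one in H82 alone, with 2001 and 0 bp covered. The low-neuroendocrine markers REST and YAP1 also had a TSS region in both. Of these markers NEUROD1 alone thus differed between the lines in the presence of a region. In covered bases SYP differed too, with 1908 bp in H82 and 1027 bp in H146.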

How the data were processed

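Per the labels and the study's methods, the authors trimmed paired ATAC-seq reads with Trim Galore 0.4.4 and aligned them to hg38 with Bowtie2 2.3.4 at default settings. Default settings place a read with several equal matches at 1 of them. Duplicates were removed with Picard and regions called per library with MACS2. Blacklisted regions were dropped and the rest merged within 500 bp into 1 deposited list per line. The deposited values are region starts and ends in bp, with 0 columns of per-sample values left aside. H146 was sequenced in more than 1 batch, which the pooled lists do not separate. Any depth difference between lines was unknown.

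Regions and GENCODE release 44 genes were joined with Python 3.11.15, pandas 2.3.3 and pysam 0.24.0, and the overlap code was tested on simulated data. Coordinates are 1-based. Sharing required 1 bp. Of 20033 gene entries, 26 with repeated symbols were dropped. The members and gene lists were chosen with earlier results of these data known, and the box words, the 1500-bp limit and the canonical start after the values were seen. Named members were those that differed in state, the C-type genes, the ends of each group and the largest differences. Alternatives were other windows, minimum widths, start sites, overlaps and words.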

Additional observations from a re-analysis of the deposited data

How the results depend on the processing

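Of 78 values recomputed under other settings, 53 stayed within 1.5 times the reported count and 25 moved further. Members with a region in H82 alone, 4 as reported, numbered 2 with 500 bp to either side of the TSS, 9 with 2 kb, where PCDHB10, PCDHB12, PCDHGA3, PCDHGB2 and PCDHGB4 entered through their late exon regions, and 1 at the TSS base itself, where H146 alone had 2. With regions of at least 500 bp, H82 had 9 members, H146 9, both 7, H82 alone 2 and H146 alone 2. With at least 500 bp of the window overlapped the counts were 8, 9, 7, 1 and 2. From the canonical transcript start H82 alone had 3, without PCDHGA8. Across the cluster, H146-only regions (3 as reported) numbered 7 when 50% of both regions had to overlap and 5 with 50 kb added to either side. Regions of at least 500 bp numbered 19 in H82, 13 shared and 6 not, and 17 in H146, 14 shared. Without regions repeated to 50% or more, an alternative chosen after seeing the data, H82 had 37 regions, 14 of them H82 only, and H146 27 and 3. The CTCF word was at 6 members when shortened and at 8 within 500 bp of the TSS, and at 3 and 5 of those with a region in either line, against 3 and 1 as reported. The reversed word was at 12 and 5 in the wider window. The count in neither line ran from 30 to 43. Where a width or window limit moved a count, fewer or more regions entered by construction. The absence of a region is not absence of accessibility, since depth was unknown.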
